A study of Mus musculus with 8 samples.

Results

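The autophagy machinery was examined as 43 mouse genes, listed by symbol from the known stages of macroautophagy and matched through the GENCODE M21 annotation to the Ensembl genes of the count table. All 43 were found among the 49315 genes listed, and all 43 passed the filter on low counts that left 13051 genes. The libraries came from bone marrow-derived macrophages (BMDMs) of C57BL/6 mice, primary cells grown out of marrow with 10 ng/ml of the macrophage growth factor MCSF. Every library shared the strain and the culture conditions, and by the labels the groups differed only in the gapmeR transfected at 25 nM. A gapmeR is a chimeric antisense oligonucleotide through which RNase H cuts the RNA it pairs with. One group of 4 libraries (replicates 2, 5, 6 and 7) received a negative control gapmeR, and the other 4 libraries (replicates 9, 11, 13 and 15) received a gapmeR against MAARS, the long noncoding RNA annotated as Gm14461. Total RNA was depleted of ribosomal RNA and sequenced as paired reads. The comparison asked which transcripts of the autophagy machinery differed in level once MAARS was reduced.

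Autophagy encloses cytoplasm, organelles or bound cargo in a double membrane, the autophagosome, which then fuses with lysosomes. A kinase complex around ULK1 starts the process, a class III phosphatidylinositol 3-kinase (PI3K) complex marks the membrane, and ATG2 and ATG9 proteins supply lipid. A pair of ubiquitin-like conjugation systems then attaches ATG8 proteins (the LC3 and GABARAP families) to the growing membrane, where they bind cargo receptors such as p62. In macrophages the same machinery is known for the clearance of lipid droplets, bacteria and damaged mitochondria, and part of it serves LC3-associated phagocytosis.

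Each library held between 19287279 and 24541205 counts. MAARS (ENSMUSG00000054510, chr2:78237547-78302230, GRCm38, plus strand) stood at 12.2, 15.1, 12.98 and 12.2 CPM (counts scaled to library size, after TMM) in control replicates 2, 5, 6 and 7, and at 7.71, 6.41, 7.31 and 5.85 CPM in MAARS replicates 9, 11, 13 and 15. The 2 groups did not overlap, and the level fell by 0.95 on the log2 scale (SE 0.11, adjusted p = 5.8e-05, edgeR quasi-likelihood test, Benjamini-Hochberg adjustment). All later log2 fold changes and adjusted p-values are from that test, adjusted over the 13051 genes. A gene was called at an adjusted p under 0.05. Values per library follow the same order of replicates, control first, log2 fold changes are given ± SE, and levels and shares per group ± SD (n = 4). The labels do not say whether replicates were separate cultures or animals, so p-values cover only the spread between these libraries. Of 8 macrophage markers, 5 were called higher and 2 lower (Cd68 and Fcgr1). Their summed level was 13836 to 17118 CPM in the control libraries and 17011 to 20241 CPM in the MAARS gapmeR libraries. Most of that sum was Lyz2 (8048 to 11042 CPM against 11813 to 14677 CPM), and the other 7 markers together were at 5457 to 6287 CPM against 5197 to 5564 CPM. The 5 fibroblast markers summed to 458 to 1045 CPM against 718 to 1233 CPM with none called. The 7 neutrophil and precursor markers summed to 71.8 to 209 CPM against 74.4 to 120.0 CPM with none called. The T cell list (65.9 to 85.5 CPM against 40.6 to 51.4 CPM) was almost entirely Cd4, called lower, with Cd3g at 0 and Cd3d, Cd3e and Cd8a under 1 CPM. The endothelial list (16.1 to 20.5 CPM against 6.25 to 7.66 CPM) was mostly Kdr, also called lower. The B cell, dendritic cell, erythroid and mast cell lists summed to under 3 CPM. The part of these shifts in the members' values was not tested, and in bulk RNA fewer cells of a type cannot be told apart from less RNA per cell.

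With MAARS gapmeR, 16 of the 43 members were called higher and 10 lower, and 17 were not called. The 26 called members were 60.5% of the list, where 45.4% of all genes tested were called. In the higher direction the members' share was 37.2% beside 21.3% of all genes, and in the lower direction 23.3% beside 24.0%. With offsets for gene length and GC content, 11 members were higher and 11 lower (25.6% each), beside 20.3% and 24.0% of all genes. The members were well expressed (the lowest control mean was 8.37 CPM), and among the 8785 genes at or above the mean level of the lowest member 53.0% were called. That share was not split by direction, and the 21.3% and 24.0% of all genes also cover genes below the members' level. The changes were mostly small. The median absolute log2 fold change was 0.40 in the called members that rose and 0.24 in those that fell, beside 0.39 over all called genes. Over all 43 members the median log2 fold change was 0.057, beside 0.0080 over all genes tested. At an adjusted p under 0.01, 12 members were higher and 8 lower (30.3% of all genes called). With a fold change of at least 1.5 added to the first rule, only Atg2b and Wipi1 were left, both higher (13.7% of all genes called). With 1.5 required on the log2 scale, in either direction, no member was called (2.2% of all genes). At an unadjusted p under 0.0001, 8 members were higher and 2 lower (14.1% of all genes). The libraries of the 2 groups did not overlap in 24 members (55.8%), beside 42.1% of all genes tested, a share that also covers genes below the members' level. Of these 24, 23 were called, Atg101 being the exception, and the called members with overlapping libraries were Pik3r4, Uvrag and Gabarapl2. With upper-quartile scaling in place of TMM, 19 members were higher (44.2%, beside 27.8% of all genes) and 8 lower (18.6%, beside 18.2%). Of the genes called over the whole series, 60.4% were then in the higher direction, in place of 47.0%.

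**Figure D1:**
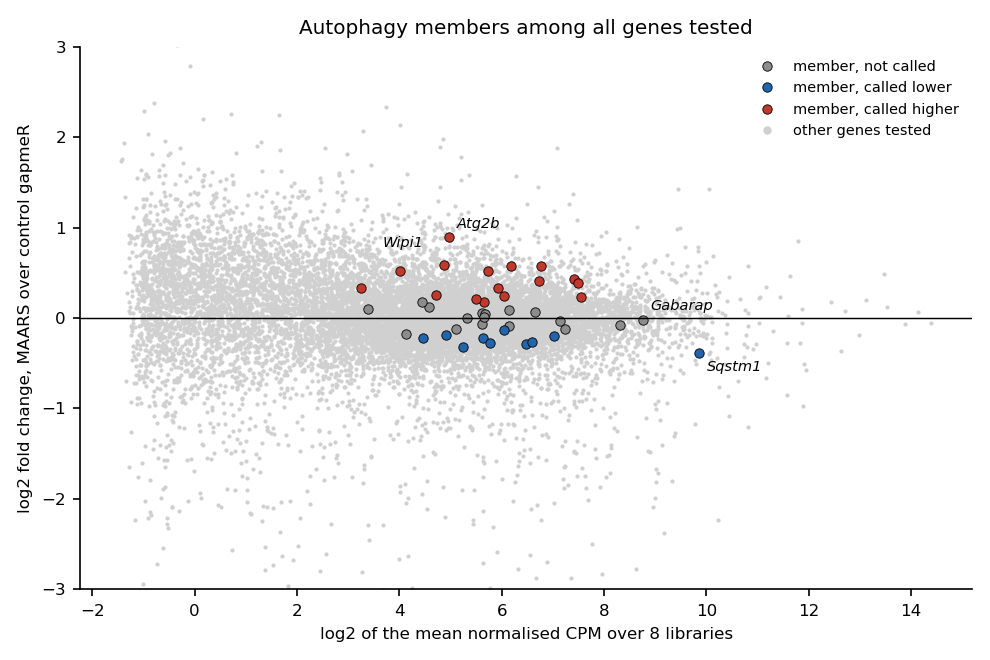
Log2 fold change with MAARS gapmeR (y axis) against the log2 of the mean normalised CPM over 8 libraries (x axis) for the 13051 genes tested in grey, with the 43 members coloured by call. The members lie in the middle and upper part of the expression range and within a narrow band of change, from -0.39 (Sqstm1) to 0.90 (Atg2b), and 57 genes that are not members lie beyond the plotted range of 3 in either direction.

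**Figure D2:**
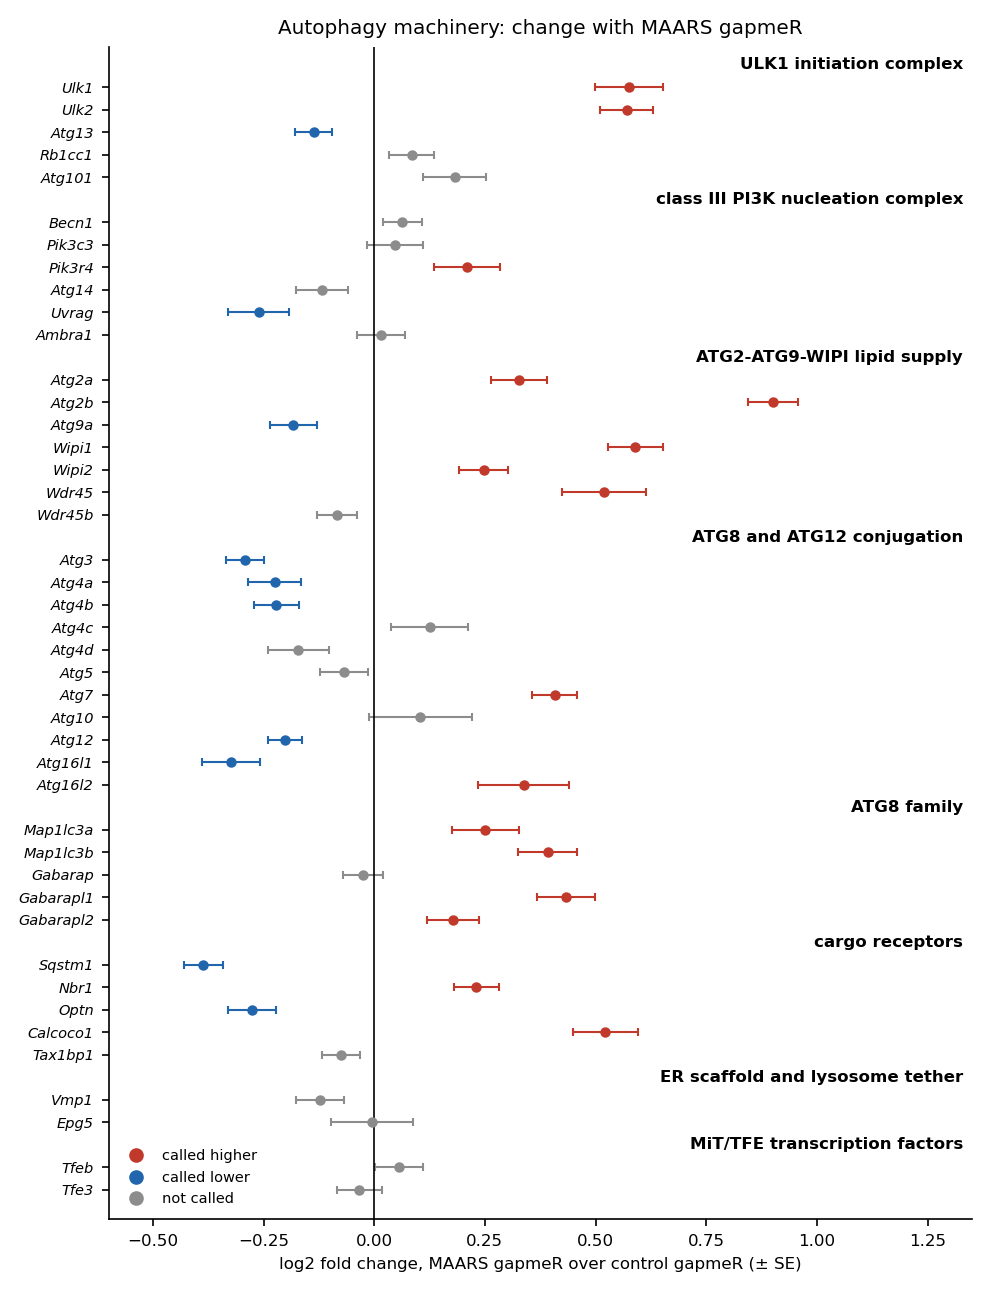
Log2 fold change of each of the 43 members with its SE from the edgeR fit (x axis), ordered by stage, 4 libraries per group. Points in red were called higher, in blue lower, and in grey not called. The ATG2-ATG9-WIPI and ATG8 groups lie mostly to the right of 0, and the conjugation group holds members on both sides.

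The counts by stage given here and below stand beside 21.3% of all genes tested called higher and 24.0% called lower, shares that also cover genes below the members' level. Of the 5 members of the ULK1 initiation complex, 2 were called higher, 1 lower and 2 not at all. Both catalytic subunits rose. Ulk1, the serine/threonine kinase that phosphorylates the other early factors (chr5:110784488-110810097, minus strand), stood at 55.7, 66.0, 59.8 and 52.4 CPM in the control libraries and 96.5, 80.6, 83.2 and 88.3 CPM with MAARS gapmeR. Every MAARS gapmeR library lay above every control library (log2 fold change 0.58 ± 0.077, adjusted p = 0.000133). Ulk2, its close relative (chr11:61775649-61855073, minus strand), stood at 86.3, 95.5, 86.7 and 84.2 CPM and 143, 132, 129 and 121 CPM, again with no overlap (log2 fold change 0.57 ± 0.060, adjusted p = 2.45e-05). The regulatory subunit Atg13, which carries the kinase to its substrates, moved the other way and by little. It had the highest level per exon length of the complex (15.9 ± 0.255 CPM per kb, SD, n = 4, in the control libraries). It was at 69.9, 70.6, 69.5 and 68.0 CPM in the control libraries and 64.0, 63.9, 64.0 and 60.9 CPM with MAARS gapmeR. The ranges did not touch, and the gene fell by 0.14 on the log2 scale (SE 0.041, adjusted p = 0.0190). Its call was lost without MAARS replicate 15 (adjusted p = 0.0502), with no filter (0.0838) and with upper-quartile factors (0.150). The scaffold Rb1cc1 (FIP200) gave a log2 fold change of 0.084 ± 0.050 and the ATG13 partner Atg101 one of 0.18 ± 0.072, neither called. Rb1cc1 passed with upper-quartile factors (adjusted p = 0.0288). Atg101 passed without control replicate 2 (adjusted p = 0.0313), with RLE factors (0.0491), with upper-quartile factors (0.0152) and with 1 surrogate variable (0.0380).

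The class III PI3K complex, which makes the phosphatidylinositol 3-phosphate that recruits later factors, had the lowest share of calls among the groups of 5 or more members, with 1 of 6 members higher and 1 lower. Its best expressed member per exon length, the scaffold Becn1 (14.0 ± 0.355 CPM per kb in the control libraries), was at 95.4, 98.5, 101 and 99.6 CPM in the control libraries and 102, 99.2, 108 and 104 CPM with MAARS gapmeR. These ranges overlapped, and the log2 fold change of 0.064 ± 0.043 was not called (adjusted p = 0.250, 0.0304 with upper-quartile factors). Exons of Cntd1 on the other strand cover 43.9% of the exon length of Becn1. The strand setting of the counting was not given in the sources used here, so reads of the pair cannot be told apart. Pik3r4, the regulatory subunit VPS15, rose from 41.0, 46.7, 43.9 and 36.9 CPM to 51.6, 50.7, 44.4 and 48.2 CPM (log2 fold change 0.21 ± 0.075, adjusted p = 0.0407). The groups overlapped in this gene, and the call was lost without control replicate 2, 6 or 7 or MAARS replicate 9, 11 or 15 (adjusted p from 0.0553 to 0.110) and with offsets for length and GC content (0.312). Uvrag, a Beclin 1 partner that competes with ATG14 and also serves endosome maturation, was at 93.6, 102, 116 and 109 CPM in the control libraries and 96.3, 83.9, 84.2 and 86.7 CPM with MAARS gapmeR. MAARS replicate 9 lay within the control range. The level fell by 0.26 on the log2 scale (SE 0.069, adjusted p = 0.00994), with 17.6% of its exon length under exons of the other strand. The lipid kinase Pik3c3 itself (0.048 ± 0.063), the autophagy-specific partner Atg14 (-0.12 ± 0.059) and the scaffold Ambra1 (0.015 ± 0.055) gave log2 fold changes that were not called.

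Of the 7 genes of the ATG2-ATG9-WIPI group, 5 were called higher and 1 lower, beside 21.3% and 24.0% of all genes tested. Their median log2 fold change of 0.33 was the highest of the groups with 5 or more members. Atg2b, a lipid transfer protein that bridges the endoplasmic reticulum and the forming membrane (chr12:105616136-105685211, minus strand), gave the lowest p and the largest fold change of the 43 members. It was at 20.5, 23.6, 21.7 and 21.4 CPM in the control libraries and 40.6, 40.3, 41.5 and 40.3 CPM with MAARS gapmeR. The MAARS gapmeR libraries lay within 2 CPM of each other and far above all control libraries (1.87-fold, log2 fold change 0.90 ± 0.056, adjusted p = 3.86e-06). Its relative Atg2a rose less (0.33 ± 0.063, adjusted p = 0.00148), and that call was lost with offsets for length and GC content (0.157). Wipi1, which binds phosphatidylinositol 3-phosphate, was at 22.0, 25.5, 23.0 and 22.8 CPM in the control libraries and 37.5, 33.7, 35.1 and 34.3 CPM with MAARS gapmeR. Again no library of one group reached the other (log2 fold change 0.59 ± 0.063, adjusted p = 2.68e-05). Wipi2, which recruits ATG16L1 to the membrane, rose by less (0.25 ± 0.056, adjusted p = 0.00404, 0.122 with the length and GC offsets). Wdr45, which encodes the ATG2-binding WIPI4, also rose (0.52 ± 0.095, adjusted p = 0.00108), with 24.7% of its exon length shared with Gm45208 of the same strand. Wdr45b, encoding WIPI3, had the highest level per exon length of the group (15.8 ± 0.256 CPM per kb) and was not called. It was at 70.9, 73.3, 71.6 and 73.1 CPM in the control libraries and 71.0, 67.4, 69.7 and 64.5 CPM with MAARS gapmeR (log2 fold change -0.083 ± 0.045, adjusted p = 0.150). Atg9a, the membrane scramblase carried by vesicles, was the only one of the 7 called lower, with a fall of 0.18 on the log2 scale (SE 0.053, adjusted p = 0.0148). This gene shares 31.8% of its exon length with Gm29253 on the same strand, and its call was lost with no filter (0.0502) and with upper-quartile factors (0.0775).

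**Figure D3:**
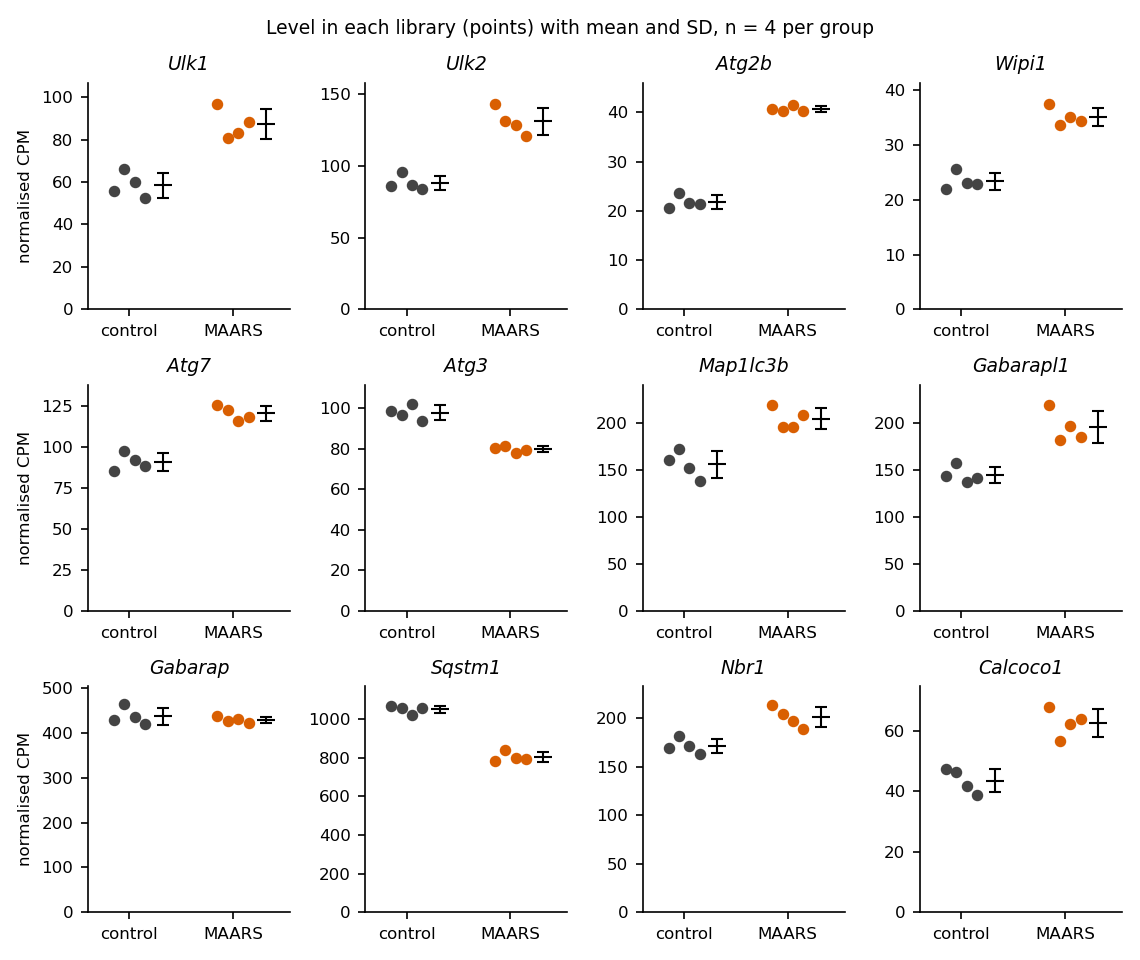
Normalised CPM (y axis, from 0) of 12 members in each of the 4 control and 4 MAARS gapmeR libraries, with the mean and SD beside the points. In all panels but that of Gabarap the points of the 2 groups do not overlap. Atg3 and Sqstm1 are lower with MAARS gapmeR and the other 9 are higher.

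In the 2 conjugation systems, 5 of 11 members were called lower and 2 higher, beside 24.0% and 21.3% of all genes tested. The median log2 fold change was -0.17. Atg7 rose and Atg3 fell. Atg7, the E1-like enzyme that activates both ATG12 and the ATG8 proteins (chr6:114643097-114860614, plus strand), was at 85.4, 97.5, 92.2 and 88.6 CPM in the control libraries and 126, 122, 116 and 118 CPM with MAARS gapmeR (log2 fold change 0.41 ± 0.051, adjusted p = 8.21e-05). Atg3, the E2-like enzyme that takes ATG8 proteins over from ATG7 (chr16:45158785-45188538, plus strand), was the best expressed member of the group per exon length. It was at 98.6, 96.5, 102 and 93.5 CPM and 80.5, 81.4, 77.8 and 79.4 CPM, and fell by 0.29 on the log2 scale (SE 0.043, adjusted p = 0.000262). Neither gene had overlapping groups. Atg10, the E2-like enzyme for ATG12, gave 0.10 ± 0.12 and was not called. Of the parts of the ATG12-ATG5-ATG16L1 complex, which acts as the E3, Atg12 fell by 0.20 (SE 0.038, adjusted p = 0.00137) and Atg16l1 by 0.32 (SE 0.066, adjusted p = 0.00220) on the log2 scale. Atg5 gave -0.068 ± 0.054 and was not called. Atg16l2, a relative of Atg16l1 and the lowest of all 43 members per exon length, rose (0.34 ± 0.10, adjusted p = 0.0203). That call was lost without control replicate 6 (0.0608), without MAARS replicate 9 (0.0609) and with the length and GC offsets (0.0624). The ATG4 proteases cut ATG8 proteins before conjugation and free them afterwards. Atg4a fell by 0.23 (SE 0.059, adjusted p = 0.00913, 0.245 with the length and GC offsets) and Atg4b by 0.22 (SE 0.051, adjusted p = 0.00446) on the log2 scale. Atg4c (0.13 ± 0.086) and Atg4d (-0.17 ± 0.069, adjusted p = 0.0635) were not called, and Atg4d passed without control replicate 7 (0.0414) and with the length and GC offsets (0.0128).

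The letters CACGTG are the core of the E-box bound by TFEB and the other MiT/TFE factors, known regulators of lysosomal and autophagy genes. The promoters printed here are shown because the same letters stood before a member that fell, one that was not called and one that rose. RefSeq sequences (GRCm38.p6) from 250 bases before to 50 after each annotated start were found for 35 of the 43 members. CACGTG, which reads the same on both strands, occurred in 4 of these 35 genes (11.4%), Atg3, Atg5, Atg7 and Atg14, beside 8.09% of 27025 genes. In the stretches of 60 bases that follow, read 5′ to 3′ in the direction of the gene, capitals mark CACGTG. The Atg3 stretch holds it 2 times and, like that of Atg5, lies before the gene in GENCODE M21, whereas the Atg7 stretch lies before a start within an intron of that gene.
Atg3 (chr16:45158708-45158767, plus strand): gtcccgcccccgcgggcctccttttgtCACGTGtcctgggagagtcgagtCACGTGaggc
Atg5 (chr10:44268279-44268338, plus strand): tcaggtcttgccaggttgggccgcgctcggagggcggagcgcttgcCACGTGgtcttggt
Atg7 (chr6:114670937-114670996, plus strand): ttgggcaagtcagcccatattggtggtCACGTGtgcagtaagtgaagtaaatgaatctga
The core of the antioxidant response element, TGACNNNGC on either strand, occurred in 5 of the 35 genes (14.3%, Ulk2, Atg13, Map1lc3b, Tax1bp1 and Vmp1) beside 14% of all genes. The core of the interferon-stimulated response element, searched on both strands, occurred in 1 (Nbr1, 2.86%) beside 3.99%. No factor binding was measured here, and a match is only a match of letters.

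The ATG8 family, whose lipid-bound forms decorate the membrane and bind receptors, had 4 of 5 members called higher, beside 21.3% of all genes, and none lower. Gabarap, the most abundant of them per exon length (236 ± 10.7 CPM per kb in the control libraries), was the one not called. It was at 428, 464, 434 and 418 CPM in the control libraries and 437, 425, 430.3 and 421 CPM with MAARS gapmeR. These ranges overlapped throughout (log2 fold change -0.026 ± 0.045, adjusted p = 0.661). Gabarapl1, the next in level (71.9 ± 4.26 CPM per kb), rose from 143, 157, 137 and 141 CPM to 219, 182, 197 and 185 CPM without overlap (log2 fold change 0.43 ± 0.065, adjusted p = 0.000283). A stretch of 28.3% of its exon length lies under 1700101I11Rik on the other strand. Map1lc3b, encoding the LC3B protein that is widely used as an autophagosome marker, was at 161, 172, 152 and 138 CPM and 219, 196, 195 and 208 CPM, also without overlap (log2 fold change 0.39 ± 0.066, adjusted p = 0.000662). Map1lc3a, encoding LC3A, was at 25.1, 26.7, 23.1 and 21.1 CPM in the control libraries and 29.1, 28.6, 26.8 and 29.7 CPM with MAARS gapmeR. There replicate 13 lay barely above the highest control library (log2 fold change 0.25 ± 0.076, adjusted p = 0.0185). This call was lost without control replicate 6 (0.0522), without control replicate 7 (0.0506) and with the length and GC offsets (0.169). Gabarapl2 (GATE-16) was at 45.2, 52.4, 45.3 and 45.7 CPM and 55.4, 50.9, 53.7 and 53.6 CPM, so that control replicate 5 lay within the range of the MAARS gapmeR libraries. Its rise (0.18 ± 0.059, adjusted p = 0.0278) was no longer called without control replicate 2, 6 or 7 or MAARS replicate 9, 13 or 15 (0.0541 to 0.0815) or with no filter (0.0513).

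Expressed per exon length, the summed ATG8 level was 370 ± 19.4 CPM per kb (SD, n = 4) in the control libraries and 404 ± 13.6 CPM per kb with MAARS gapmeR. This difference did not pass the exact permutation test (p = 0.0857, 2-sided). Within that sum, Gabarap made up 64.0% ± 0.73 (SD, n = 4) in the control libraries and 57.6% ± 1.12 with MAARS gapmeR, and Gabarapl1 19.4% ± 0.47 and 24.0% ± 1.22. Map1lc3b went from 5.60% ± 0.28 to 6.73% ± 0.25. In these 3 the groups did not overlap (exact permutation p = 0.0286 each, the smallest that 4 against 4 libraries can give). Shares of a sum depend on each other, and the level of Gabarap itself was not called (log2 fold change -0.026, adjusted p = 0.661). The shares of Map1lc3a (5.49% and 5.99%) and Gabarapl2 (5.48% and 5.69%) overlapped between groups (exact permutation p = 0.114 each). The shares, like the cargo receptor shares and the ratios given further on, were examined after the single genes had been seen.

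The 5 cargo receptors, which tie ubiquitin-marked or organelle cargo to ATG8 proteins, were divided, with 2 higher, 2 lower and 1 not called. Sqstm1, encoding p62 (chr11:50199366-50210827, minus strand), had the highest level of all 43 members per exon length (313 ± 5.70 CPM per kb in the control libraries) and showed the largest decrease among them. It was at 1065, 1057, 1022 and 1055 CPM in the control libraries and 785, 840.2, 797 and 792 CPM with MAARS gapmeR. No library of one group came near the other. The level fell by 0.39 on the log2 scale (SE 0.044, adjusted p = 4.28e-05), with 17.3% of the exon length under Mrnip on the other strand. Optn, optineurin, a receptor known from mitophagy and clearance of bacteria, was at 61.6, 62.7, 59.8 and 54.8 CPM and 47.2, 49.7, 51.5 and 49.1 CPM. It also showed no overlap, and fell by 0.28 (SE 0.054, adjusted p = 0.00173). Nbr1, a partner of p62 with a like domain order, was at 169, 181, 172 and 163 CPM in the control libraries and 213, 204, 197 and 189 CPM with MAARS gapmeR. Its rise left no overlap (0.23 ± 0.050, adjusted p = 0.00328). Calcoco1, a receptor for the endoplasmic reticulum and Golgi, rose from 47.2, 46.2, 41.8 and 38.8 CPM to 67.7, 56.4, 62.1 and 63.8 CPM (0.52 ± 0.074, adjusted p = 0.000201). Tax1bp1, a ubiquitin-binding receptor, was at 331, 332, 328 and 305 CPM and 305, 311, 311 and 303 CPM. Control replicate 7 lay among the MAARS gapmeR libraries, and the gene was not called (-0.076 ± 0.043, adjusted p = 0.170).

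Sqstm1 dominated the group. The summed receptor level went from 394 ± 7.06 CPM per kb (SD, n = 4) in the control libraries to 323 ± 7.35 CPM per kb with MAARS gapmeR (exact permutation p = 0.0286, 2-sided). The share of Sqstm1 in that sum was 79.5% ± 0.80 in the control libraries and 74.0% ± 0.74 with MAARS gapmeR. The share of Nbr1 was 6.33% ± 0.25 and 9.04% ± 0.46, and that of Calcoco1 was 1.93% ± 0.15 and 3.38% ± 0.32. For Tax1bp1 it was 8.24% ± 0.29 and 9.51% ± 0.15, and in all 4 receptors the groups did not overlap (exact permutation p = 0.0286 each). The share of Optn was 4.04% ± 0.20 and 4.07% ± 0.15 (exact permutation p = 0.886). Here too the shares of a sum depend on each other, and the 4 p-values are not separate results. A larger share of Tax1bp1 therefore stood beside a level that was not called.

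**Figure D4:**
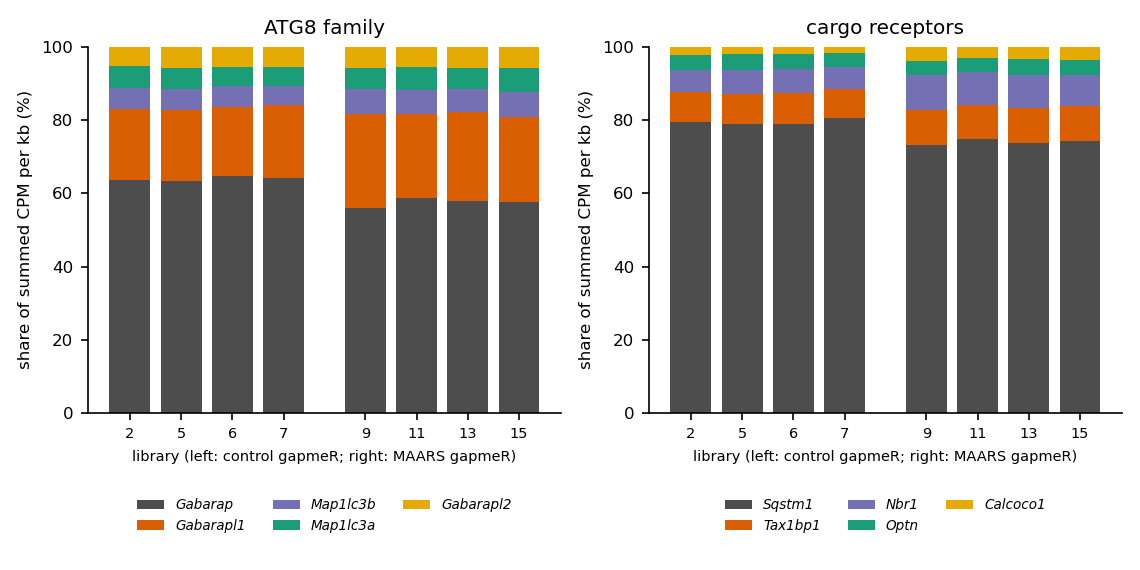
Share of each gene (y axis, percent) in the summed CPM per kb of the ATG8 family (left) and of the cargo receptors (right), 1 bar per library, control replicates 2, 5, 6 and 7 to the left and MAARS replicates 9, 11, 13 and 15 to the right in each panel. The share of Gabarap is 63.3% to 64.9% in the control libraries and 56.0% to 58.7% with MAARS gapmeR, and that of Sqstm1 78.9% to 80.6% and 73.1% to 74.9%.

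The remaining members were not called. Vmp1, an endoplasmic reticulum scramblase needed early in autophagosome formation, was at 148, 155, 168 and 158 CPM in the control libraries and 138, 137, 148 and 154 CPM with MAARS gapmeR. It was not called (log2 fold change -0.12 ± 0.054, adjusted p = 0.0851), and passed without MAARS replicate 15 (0.0461). Epg5, a tether between autophagosomes and lysosomes, was at 38.6, 42.2, 41.5 and 38.8 CPM and 43.1, 43.4, 42.5 and 31.7 CPM. MAARS replicate 15 lay below every other library (log2 fold change -0.0047 ± 0.092, adjusted p = 0.972). Both transcription factors of the MiT/TFE family on the list kept overlapping groups. Tfeb was at 46.5, 51.7, 48.7 and 45.8 CPM in the control libraries and 52.8, 50.6, 49.1 and 47.9 CPM with MAARS gapmeR (0.057 ± 0.055, adjusted p = 0.423). With the length and GC offsets the direction of Tfeb turned and the gene was called lower (log2 fold change -0.16, adjusted p = 0.0440). Tfe3 was at 137, 145, 149.9 and 141 CPM and 152, 133, 139 and 137 CPM (-0.034 ± 0.051, adjusted p = 0.612). Mitf and Tfec, of the same family but not among the members, were in a further list described below. Mitf was called higher, with overlapping groups (0.19 ± 0.068, adjusted p = 0.0430). Tfec was not called (-0.047 ± 0.059, adjusted p = 0.545).

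Levels per exon length spanned more than 2 orders of magnitude in the control libraries. Sqstm1 (313 ± 5.70 CPM per kb) and Gabarap (236 ± 10.7 CPM per kb) led, followed by Gabarapl1 (71.9 ± 4.26), Vmp1 (40.7 ± 2.19), Tax1bp1 (32.4 ± 1.29) and Atg3 (31.0 ± 1.16 CPM per kb). In the last pair the ranges of mean ± SD overlapped. Those of Atg5 (21.2 ± 0.989), Map1lc3b (20.7 ± 1.87), Map1lc3a (20.3 ± 2.06) and Gabarapl2 (20.3 ± 1.51 CPM per kb) overlapped as well. Levels were not tested between genes, and their order rests on the length used. The merged exons of Tax1bp1 span 9991 bases and its longest transcript 4249 bases, beside 3154 and 2081 bases in Atg3. The lowest were Atg2b (1.62 ± 0.0987 CPM per kb) and Atg16l2 (0.988 ± 0.111 CPM per kb). The gene with the largest increase was thus among the least abundant, and the one with the largest decrease was the most abundant. Called members that rose had a median exon length of 6679.5 bases, those that fell 5065 bases and those not called 4562 bases, beside 4280 bases over all genes tested.

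Related genes that do similar work were set against each other within each library, which does not depend on library scaling. Of 16 pairs, 11 gave log2 ratios that did not overlap between groups (exact permutation p = 0.0286 each, adjusted over the 16 pairs 0.0416). That was 68.8% of the pairs, beside 51.2% of all pairs that could be formed from the 8785 genes at or above the mean level of the lowest member. The pairs share genes, and 6 of the 16 came from the 4 Atg4 genes and 3 from the 3 GABARAP genes. The ratio of Atg2a to Atg2b went from 1.31 ± 0.076 (SD, n = 4) to 0.74 ± 0.097 on the log2 scale. That of Wipi1 to Wipi2 went from -1.37 ± 0.071 to -1.03 ± 0.057, and that of Wdr45 to Wdr45b from -2.45 ± 0.16 to -1.84 ± 0.10. The widest change was that of Atg16l1 to Atg16l2, from 2.34 ± 0.19 to 1.67 ± 0.15. In the ATG8 family, the log2 ratio of Gabarap to Gabarapl1 went from 1.59 ± 0.046 to 1.14 ± 0.099, and that of Gabarap to Gabarapl2 from 3.21 ± 0.051 to 3.0 ± 0.041. Gabarapl1 gained on Gabarapl2 as well. Their log2 ratio went from 1.62 ± 0.036 to 1.87 ± 0.082, and that of Map1lc3a to Map1lc3b from -2.70 ± 0.020 to -2.84 ± 0.061. Atg4c gained on each of Atg4a, Atg4b and Atg4d, by 0.35, 0.35 and 0.30 on the log2 scale. Pairs whose groups overlapped were Ulk1 to Ulk2 (difference 0.0082, exact permutation p = 0.914), Atg4a to Atg4b (p = 0.943), Atg4a to Atg4d (p = 0.286), Atg4b to Atg4d (p = 0.429) and Tfeb to Tfe3 (difference 0.092, p = 0.114), all unadjusted exact permutation values. The 2 ULK kinases thus gave no separable difference in change here, and a p that misses the threshold does not show that they moved alike.

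**Figure D5:**
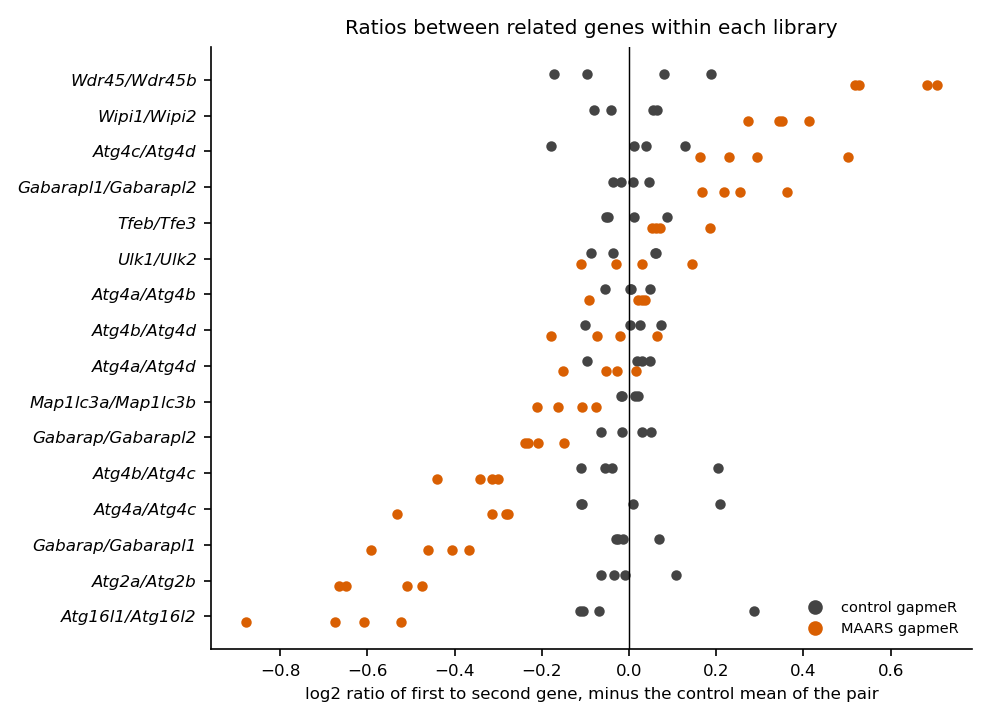
Log2 ratio of the first to the second gene of 16 pairs in each library, minus the mean of the control libraries for that pair (x axis), with control libraries in grey and MAARS gapmeR libraries in orange. The points of the 2 groups are apart in 11 pairs and mixed in the pairs Ulk1/Ulk2, Atg4a/Atg4b, Atg4a/Atg4d, Atg4b/Atg4d and Tfeb/Tfe3.

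Genes around the core machinery were described from 6 further lists in the same fit. As background, 45.4% of all genes tested were called, and 53.0% of the 8785 genes at or above the mean level of the lowest member. Of the genes that control autophagy through the kinases mTORC1 and AMPK, 40 of 41 were tested, 13 were called higher and 7 lower (50.0% called). The lowest p-values of that list belonged to Castor2, Sesn1 and Prkag1, all higher. Castor2, a relative of the arginine sensor of mTORC1, gave 0.35 ± 0.045 (adjusted p = 0.000107). Sesn1, a sestrin that holds mTORC1 back, was at 162 to 213 CPM in the control libraries and 260.0 to 344 CPM with MAARS gapmeR (0.72 ± 0.096, adjusted p = 0.000128). Prkag1, an AMPK subunit with 43.7% of its exon length under genes of the other strand, gave 0.38 ± 0.059 (adjusted p = 0.000390). Of 21 genes of the fusion with lysosomes, 2 were higher and 7 lower (42.9% called). The leading 3 all fell. The SNARE genes Vamp8 and Snap29 of the autophagosome fusion complex fell by 0.41 (SE 0.056, adjusted p = 0.000140) and 0.29 (SE 0.054, adjusted p = 0.00123) on the log2 scale. Arl8a, a small GTPase of lysosomes, fell by 0.24 (SE 0.042, adjusted p = 0.000862). Of 21 receptors for single organelles, 4 were higher and 6 lower (47.6% called). Pink1, the kinase that marks damaged mitochondria, was at 65.8 to 85.8 CPM in the control libraries and rose to a range of 117 to 152 CPM (0.85 ± 0.090, adjusted p = 2.68e-05). Nufip1, a ribosome receptor, fell by 0.49 (SE 0.058, adjusted p = 5.75e-05) and Retreg3, a receptor for the endoplasmic reticulum, by 0.27 (SE 0.050, adjusted p = 0.00110).

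The NADPH oxidase and Rubicon genes of LC3-associated phagocytosis, in which LC3 is attached to single-membrane phagosomes, were 5 of 8 lower and 1 higher (75.0% called, median log2 fold change -0.36). Ncf4, encoding p40phox, was at 163 to 181 CPM in the control libraries and 108 to 122 CPM with MAARS gapmeR, and fell by 0.60 (SE 0.052, adjusted p = 8.42e-06). Rac2, the GTPase of the oxidase, fell by 0.45 (SE 0.047, adjusted p = 2.35e-05) and Cyba, the membrane subunit p22phox, by 0.41 (SE 0.055, adjusted p = 0.000135). Of 16 other factors of membrane supply, 4 were higher and 5 lower (56.2% called). They were led by Zfyve1, which marks the sites of autophagosome formation (0.76 ± 0.085, adjusted p = 3.8e-05), Tbc1d5, a Rab7 regulator (0.53 ± 0.062, adjusted p = 5.18e-05), and the ATPase Vcp (0.28 ± 0.042, adjusted p = 0.000272). Of 12 other transcription factors linked to autophagy, 10 were tested and 4 were higher, none lower (40.0% called). They included Foxo3, an activator of autophagy genes (0.63 ± 0.098, adjusted p = 0.000365), Zkscan3, described as their repressor (0.25 ± 0.055, adjusted p = 0.00325), and Creb1, a cyclic AMP response factor whose groups overlapped (0.28 ± 0.085, adjusted p = 0.0188). Prkaa2, Nr1h4 and Ppara did not pass the filter on low counts.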

How the data were processed

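RNA-Seq of BMDMs treated with control gapmeR (n = 4) or MAARS gapmeR (n = 4) was used. Per the submitters' processing notes and the methods, the authors trimmed the reads with Trimmomatic 0.36, aligned them with STAR 2.5.2b to mm10 (GRCm38) and counted reads per gene with featureCounts of Subread 1.5.2, which gave the deposited table of raw, unscaled counts (49315 genes). The strand setting and the treatment of reads that map to several places were not given in the sources used here. The depth behind each value was 19287279 to 24541205 counts per library. Replicates of a group differed by a chi-square of 3.19 to 10.2 per gene, so none repeated another within sampling noise.

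From these counts, genes passing filterByExpr (its minimum count at 10 and minimum total at 15) were tested with TMM factors, glmQLFit and glmQLFTest in edgeR 4.0.16 (R 4.3.3), with Benjamini-Hochberg adjustment over all 13051 genes tested. Samples were grouped by their labels. CPM values were TMM-normalized, and CPM per kb divides by the merged exon length in GENCODE M21, in which 99.5% of the gene identifiers were found. GC content came from the longest transcript. Single values were compared by 2-sided exact permutation tests over the 70 ways to divide the 8 libraries 4 and 4. The alternatives were RLE and upper-quartile factors, DESeq2 1.42.0, limma-voom 3.58.1, the robust prior of edgeR, no filter or one at a mean of 10 counts, a surrogate variable as covariate (1, by sva 3.50.0), loess offsets for length and GC content (span 0.3), thinning to the smallest library, fits leaving out each library, other thresholds, and the longest transcript as length. The test was tried on simulated counts with 200 changed genes, each changed by more than any member was here. That trial does not show how well changes of the members' size are called. Given with the value in every library are MAARS and all members of the ATG8 family and of the cargo receptors. The same holds in each other stage for the 2 members with the smallest p and the member with the highest level per length. Of each further list the 3 genes with the smallest p are named, and Mitf and Tfec as relatives of Tfeb and Tfe3. The 43 members and all lists were chosen with earlier results of these data known, so no test over the members as a list was made.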

Additional observations from a re-analysis of the deposited data

Results flagged for a closer look

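Among the 88 groups of 4 libraries examined (43 members and MAARS, each in the control and the MAARS gapmeR group), 7 held 1 library far from the other 3 by Dixon's criterion, where chance alone gives about 1 in 20. Control replicate 5 was high in Gabarapl2 (52.4 CPM, the others 45.2 to 45.7 CPM), control replicate 6 low in Pik3c3 (45.6 CPM, the others 51.2 to 52.1 CPM), and control replicate 7 low in Tax1bp1 (304.9 CPM, the others 328 to 332 CPM). MAARS replicate 9 was high in Atg4c (28.7 CPM, the others 23.6 to 23.9 CPM). MAARS replicate 15 was low in Atg13 (60.9 CPM, the others 63.9 to 64.0 CPM), Atg10 (10.1 CPM, the others 11.03 to 11.16 CPM) and Epg5 (31.7 CPM, the others 42.5 to 43.4 CPM). Without the library named, Atg13 was no longer called and Gabarapl2 remained called, and Pik3c3, Tax1bp1, Atg4c, Atg10 and Epg5 remained not called.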

How the results depend on the processing

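No paired analysis was possible because the 2 groups share no replicate number. Across 18 alternatives (8 that leave out a library and 10 others), 17 of the 26 called members kept their call in every one, and MAARS stayed called. Atg13, Pik3r4, Atg16l2, Map1lc3a and Gabarapl2 lost theirs in at least 1 fit without a library, and Atg2a, Atg9a, Wipi2 and Atg4a only under another setting. None of the 26 changed sign. Of the 17 members not called, 6 passed somewhere (Rb1cc1, Atg101, Becn1, Atg4d, Vmp1 and Tfeb), and the direction of Tfeb reversed to -0.16 with the length and GC offsets. Without single libraries, 12 to 16 members were higher (27.9% to 37.2%, beside 17.5% to 20.4% of all genes) and 10 to 11 lower (23.3% to 25.6%, beside 21% to 22.9%). The fewest were higher without control replicate 6 (12 members). With the length and GC offsets, 11 were higher and 11 lower (25.6% each, beside 20.3% and 24.0% of all genes), so the margin over all genes in the higher direction was smaller there. With a fold change of at least 1.5 added, 2 members were higher and 0 lower, with 1.5 required on the log2 scale in either direction, 0 and 0, and at an unadjusted p under 0.0001, 8 and 2. These thresholds are stricter by construction. The median log2 fold change of the members was 0.12 with upper-quartile factors and 0.057 with TMM, and over all genes 0.071 and 0.0080, a shift of 0.063 in each. For the 6 further lists, the number of called genes stayed within 1.5 times the reported one throughout. With the longest transcript as length, the share of Gabarap in the control libraries was 65.9% in place of 64.0%. There the share of Sqstm1 was 72.4% in place of 79.5%, and that of Tax1bp1 14.1% in place of 8.24%. The summed ATG8 level in the control libraries was 490 in place of 370 CPM per kb. Levels and shares per length therefore depend on the length used. Small changes, exons shared with other genes, and replicates of unstated origin limit what these counts resolve.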
